A study of Mus musculus with 4 samples.

Results

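The collagen genes were taken as every mouse gene whose symbol is Col, a number, a and a number. A probe set that named only that gene was found for 42 genes, out of 18193 genes on the array, and these 42 genes had 82 of the 34945 probe sets that named a single gene. The RefSeq gene table held 44 such symbols, and Col28a1 and Col6a6 had no probe set of their own. By class, 11 of the 42 genes encode fibrillar collagens, 9 network-forming collagens, 9 FACIT collagens (which attach to the surface of other fibrils), 6 beaded-filament collagens, 4 transmembrane collagens, 2 multiplexins and 1 the anchoring-fibril collagen.

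Collagens are extracellular matrix proteins in which chains wind around each other into a helix. Chains are hydroxylated and folded in the endoplasmic reticulum, secreted as procollagens, trimmed by proteases and then cross-linked. Fibroblasts are a main source of the fibrillar collagens of connective tissue, whereas type IV collagen builds the network of basement membranes, including those around the blood vessels of the brain.

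Total RNA of 4 mouse cell populations was measured on Affymetrix Mouse Genome 430 2.0 arrays, and each population had a single array. They were neural stem-like cells induced with 14 factors (iNSC_14F), the same kind of cells induced with 13 factors (iNSC_13F), neural stem cells derived from primary tissue (NSC) and mouse embryonic fibroblasts (MEF). The factors are not listed in the labels, and neither is the cell each induced sample began from, although the title of the series names adult liver cells and B lymphocytes. The medium of NSC and both induced populations was N2 with laminin, a basement membrane protein, and the growth factors EGF and bFGF, and the growth of the fibroblasts is not given in the labels. The source label reads embryonic stem cells throughout, against the cell type label used here. As there was 1 array per population, no value has a replicate error, no test was possible and no p-value is given. In such bulk samples, fewer cells of a type and less RNA per cell cannot be told apart.

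Values are MAS5 signals, a linear array intensity per probe set, and a level is not compared between different probe sets. A signal of 103.9 was used as a floor, because it was the highest of the 4 arrays' 95th percentiles for 86 probe sets of odorant, vomeronasal and taste receptors. Between 9854 and 10561 genes per array were above it. Lower signals were set to the floor before a fold was taken, so a fold against such an array is a lower bound, written "at least". A gene was represented by its brightest probe set and was measured in a comparison if at least 1 of the 2 arrays was above the floor. Among the 9311 genes above the floor on both induced arrays, 95% lay within 2.32-fold of each other, which is the only yardstick for smaller differences. Hybridization controls, transcripts added at the hybridization step and not to the RNA, set the NSC array apart. They were 1.84-fold higher on iNSC_14F, 2.11-fold higher on iNSC_13F and 1.86-fold higher on MEF than on NSC. Scaling the arrays to these controls moved the median log2 difference of all measured genes to -0.46 for iNSC_14F minus NSC, -0.65 for iNSC_13F minus NSC and 0.80 for NSC minus MEF, against 0.33, 0.30 and -0.01 in the deposited signals. Log2 differences and counts under that scaling are given as those under the control scaling where they differ most from those of the deposited signals.

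The labelled cell types were checked against marker genes. Among the 7 neural stem cell markers on the array, 7 exceeded the floor on iNSC_14F, 7 on iNSC_13F and 7 on NSC, against 3 on MEF. Of 8 fibroblast markers, 1 was above the floor on iNSC_14F, 2 on iNSC_13F and 1 on NSC, against 7 on MEF, with summed signals of 368, 761 and 587 against 50616. The fibroblast markers Pdgfrb, Postn and Twist2 were below the floor on all 3 neural arrays. Of 6 markers of pluripotent cells, 1 (Esrrb) was above the floor on iNSC_14F, 1 on iNSC_13F, 0 on NSC and 0 on MEF. On every array, 0 of 5 hepatocyte markers and 0 of 4 B lymphocyte markers were above it.

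Of the 42 collagen genes, 28 were above the floor on at least 1 array and 9 on all 4. The number above the floor was 16 on iNSC_14F, 18 on iNSC_13F and 13 on NSC, against 25 on MEF. Of all 18193 genes, 54.7% were above it on iNSC_14F, 55.9% on iNSC_13F, 54.2% on NSC and 58.0% on MEF. MEF had the highest signal for 24 of the 28, and the exceptions were Col4a6 on iNSC_14F, Col9a1 and Col25a1 on iNSC_13F and Col9a3 on NSC. The share of all genes that were highest on MEF was not counted. The remaining 14 genes, Col4a3, Col4a4, Col6a4, Col6a5, Col9a2, Col11a2, Col13a1, Col17a1, Col19a1, Col20a1, Col22a1, Col23a1, Col24a1 and Col26a1, were below the floor on every array by all of their probe sets.

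**Figure D1:**
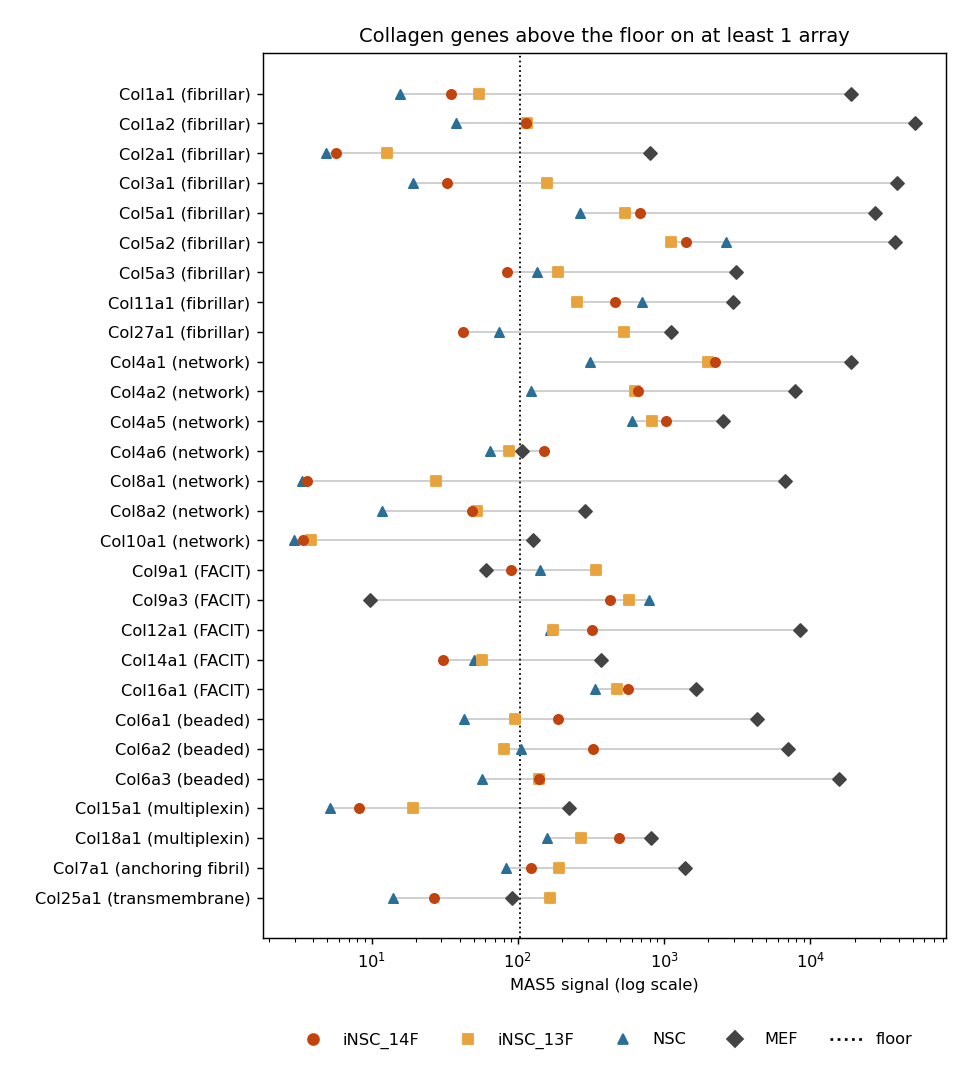
MAS5 signal on a log axis for the 28 collagen genes above the floor (dotted line) on at least 1 array, by class, with 1 marker for each of the 4 arrays. The MEF marker lies farthest right for 24 genes, and Col9a3 is the gene for which all 3 neural arrays lie above the floor and MEF below it.

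The induced cells can be placed between NSC and MEF, so these were compared first. Most measured collagen genes were far lower in NSC: 20 of 27 were at least 4-fold lower, against 7.21% of all measured genes, and 1 was at least 4-fold higher, against 6.09%. The median log2 difference was -3.75 for the collagen genes and -0.01 for all genes, and 16 of the 27 folds were lower bounds. By class, at least 4-fold lower in NSC were 9 of 9 fibrillar, 3 of 3 beaded-filament, 4 of 7 network and 2 of 5 FACIT genes. After control scaling these were 8 of 9, 3 of 4, 3 of 7 and 1 of 5, and in all 16 of 28 collagen genes were at least 4-fold lower in NSC, against 4.38% of all genes. At 2-fold, 23 of 27 were lower, against 17.5% of all genes, and 1 was higher, against 19.9%. The collagen median under the control scaling was -2.97, against 0.80 for all genes.

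The largest differences were in the chains of types I and III, the main fibril-forming collagens of skin, tendon and vessel wall. Their RefSeq promoters (GRCm38.p6) are shown because Col1a2 had the largest fold and Col3a1 was the only one of these chains to differ in detection between the induced arrays. Each run is the 150 bases directly before the start of transcription, on the plus strand, from chr6:4505468-4505617 for Col1a2 and chr1:45311388-45311537 for Col3a1, with a CCAAT box or a TATAAA box on either strand in capitals.
Col1a2: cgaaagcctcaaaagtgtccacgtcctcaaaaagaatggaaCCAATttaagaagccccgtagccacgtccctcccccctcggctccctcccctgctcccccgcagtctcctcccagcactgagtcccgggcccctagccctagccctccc
Col3a1: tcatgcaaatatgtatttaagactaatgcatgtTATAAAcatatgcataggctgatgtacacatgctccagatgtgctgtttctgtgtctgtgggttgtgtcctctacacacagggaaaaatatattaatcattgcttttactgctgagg
The Col1a2 run holds 1 CCAAT and the Col3a1 run 1 TATAAA. Windows were given for 33 of the 42 genes, as 36 windows. In the 250 bases before the start, CCAAT or its complement ATTGG was found in 13 of the 36 (36.1%), against 33.8% of all 32851 windows, and TATAAA or TTTATA in 5 (13.9%), against 12.4%. GGGCGG or CCGCCC was found in 21 (58.3%), against 32.7%. These matches describe letters only.

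Col1a2, a chain of type I collagen, had signals of 115 on iNSC_14F and 116 on iNSC_13F, 37.5 on NSC and 51598 on MEF. Both induced arrays were barely above the floor and NSC was below it. Its other probe sets were below the floor on all 3 neural arrays, where 1 of them had 41192 on MEF. Col1a1, the partner chain of type I, had 35.0 on iNSC_14F, 54.3 on iNSC_13F and 15.7 on NSC, all below the floor, and 18978 on MEF. It was at least 183-fold lower on each neural array than on MEF.

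Col3a1, the chain of type III collagen, had 32.6 on iNSC_14F, 157 on iNSC_13F, 19.1 on NSC and 38978 on MEF. Only iNSC_13F was above the floor among the neural arrays, and it was 248-fold lower than MEF. Its other probe set had 51.4 on iNSC_13F, below the floor, so this detection rests on 1 probe set. Of the 8 fibroblast markers, Thy1 was also highest on iNSC_13F among the neural arrays, with signals of 171 on iNSC_14F, 472 on iNSC_13F, 41.2 on NSC and 10813 on MEF. Prrx1 was highest on NSC among them, with 87.1 on iNSC_14F, 116 on iNSC_13F, 438 on NSC and 5357 on MEF. The other 6 were below the floor on all 3 neural arrays, and the part of these markers in the Col3a1 value was not tested.

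Type V collagen forms mixed fibrils with type I and limits their width, and 2 of its genes were above the floor on all 4 arrays. Col5a1 had 687 on iNSC_14F, 543 on iNSC_13F, 266 on NSC and 27735 on MEF. It was 40.3-fold lower on iNSC_14F, 51.0-fold lower on iNSC_13F and 104-fold lower on NSC than on MEF. Col5a2, another chain of type V, had 1399.6 on iNSC_14F, 1117 on iNSC_13F, 2649.9 on NSC and 38069.8 on MEF. Among the neural arrays, NSC was thus lowest for Col5a1 and highest for Col5a2, although under the control scaling NSC and iNSC_13F had nearly the same Col5a1 signal, with a log2 difference of -0.044 for iNSC_13F minus NSC. Col5a3, a less common chain, had 84.7 on iNSC_14F, 189 on iNSC_13F, 134 on NSC and 3089 on MEF, and it was 16.3-fold lower on iNSC_13F than on MEF.

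Type XI collagen forms the core of cartilage fibrils, and type II is the main cartilage collagen. Col11a1 had 465 on iNSC_14F, 255 on iNSC_13F, 709 on NSC and 2950.0 on MEF. It was above the floor on all 4 arrays, and it was 4.16-fold lower on NSC than on MEF. Under the control scaling this log2 difference moved from -2.06 to -1.16, less than 4-fold. Col2a1 had 5.68 on iNSC_14F, 12.7 on iNSC_13F and 4.91 on NSC, all below the floor, and 804 on MEF. The cartilage markers Acan and Comp were above the floor on MEF alone, with 345 and 143, and Matn1, Matn3 and Chad were below it on all 4 arrays. Their part in the Col2a1 signal was not tested.

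Col27a1, a fibrillar collagen of developing cartilage, had 42.3 on iNSC_14F, 527 on iNSC_13F, 74.8 on NSC and 1108 on MEF. The iNSC_13F array was the only neural array above the floor, and it was 2.10-fold lower than MEF. Its other probe set gave the same order for iNSC_13F against the other neural arrays, with 99.9 on iNSC_14F, 303 on iNSC_13F, 79.4 on NSC and 519.9 on MEF.

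**Figure D2:**
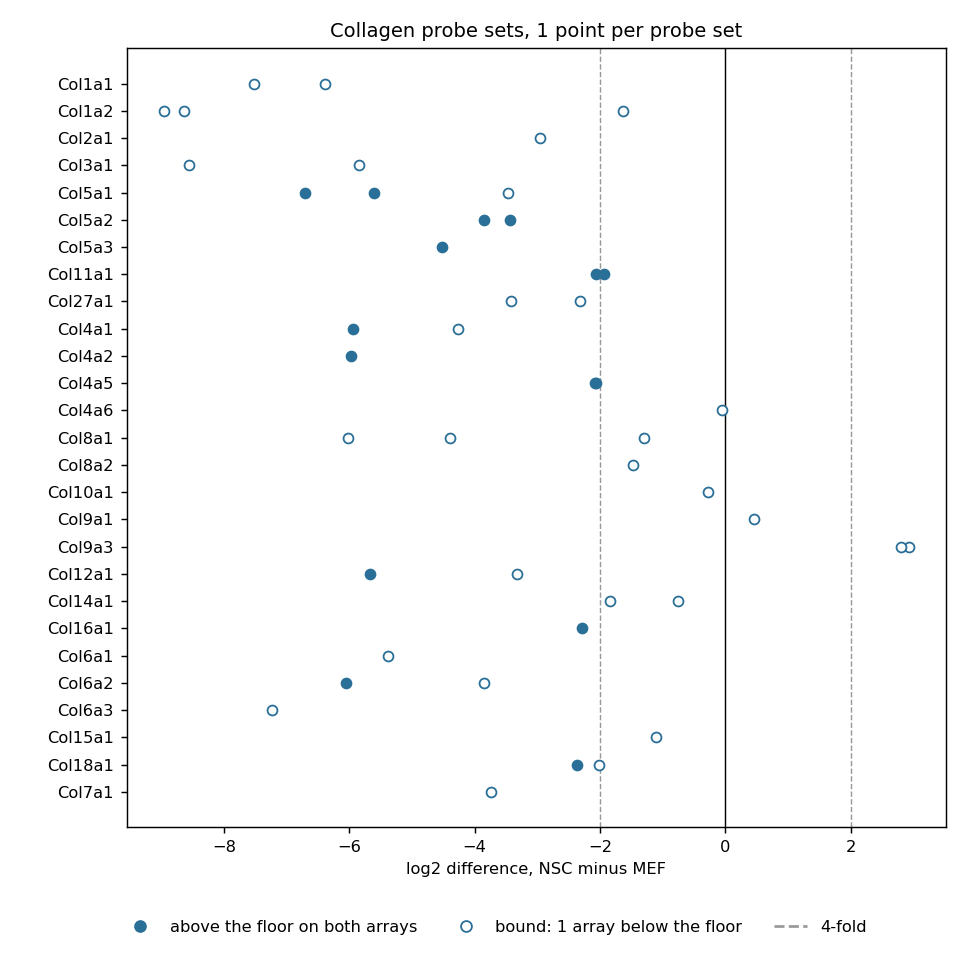
Log2 difference of NSC minus MEF for each collagen probe set above the floor on at least 1 of these arrays, 1 row per gene, with open points for lower bounds and dashed lines at 4-fold. Of 45 probe sets, 42 lie left of 0, and the 3 to the right belong to Col9a1 and Col9a3.

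Among the network-forming genes, 3 were above the floor on all 4 arrays, and all of these encode type IV collagen, the scaffold of basement membranes. Col4a1 and Col4a2 encode the chains of its common form and start beside each other on opposite strands of chromosome 8. Their RefSeq starts (GRCm38.p6) are 21 bases apart, at 11312826 on the minus strand for Col4a1 and at 11312805 on the plus strand for Col4a2. Among the 33 collagen genes with a RefSeq window, of 250 bases before and 50 bases after a start, they were the only pair whose windows overlapped. The 78 shared bases lay around the starts. Genes without a window, Col4a3 among them, could not be checked. The stretch around both starts, chr8:11312801-11312830 on the plus strand, is shown with GGGCGG in capitals.
Col4a1 and Col4a2: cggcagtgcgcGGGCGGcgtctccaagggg
Col4a1 had signals of 2221 on iNSC_14F, 1987 on iNSC_13F, 310.1 on NSC and 18982 on MEF. Both induced arrays lay between NSC and MEF, more than 4-fold from each. Col4a2 had 659.5 on iNSC_14F, 635 on iNSC_13F, 123 on NSC and 7787 on MEF, in the same order. Relative to MEF, Col4a1 was 8.55-fold lower on iNSC_14F, 9.55-fold lower on iNSC_13F and 61.2-fold lower on NSC. For Col4a2 these folds were 11.8, 12.3 and 63.1, all lower. The log2 differences of NSC minus MEF under the control scaling were -5.04 for Col4a1 and -5.09 for Col4a2, against -5.94 and -5.98 in the deposited signals. The log2 differences of the pair were 0.04 apart for NSC minus MEF, 0.42 for iNSC_14F minus NSC and 0.32 for iNSC_13F minus NSC. Blood vessels also make type IV collagen, and the endothelial markers Pecam1 and Cdh5 were below the floor on all 4 arrays. Of 6 endothelial markers, none was above the floor on iNSC_14F, 1 on iNSC_13F (Kdr, 142), none on NSC and 1 on MEF (Kdr, 207). Of 4 mural cell markers, those of the cells that wrap small vessels, none was above the floor on a neural array, against 2 on MEF. The part of vessel cells in the Col4a1 and Col4a2 signals was not tested.

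The minor chains of type IV followed other patterns. Col4a5, found in specialised basement membranes, had 1033 on iNSC_14F, 819.9 on iNSC_13F, 599 on NSC and 2543 on MEF. It was 4.24-fold lower on NSC than on MEF, 2.46-fold lower on iNSC_14F and 3.10-fold lower on iNSC_13F. For NSC minus MEF the log2 difference of Col4a5 moved from -2.09 to -1.19 under the control scaling, less than 4-fold. Col4a6, its neighbour and partner chain, had 149.8 on iNSC_14F, 87.0 on iNSC_13F, 64.5 on NSC and 107 on MEF, and its other probe set was below the floor on all 4 arrays. Col4a3 and Col4a4, which join Col4a5 in the kidney filter, were below the floor throughout.

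The short-chain network collagens were below the floor on all 3 neural arrays. Col8a1, a collagen of vessel walls and the cornea, had 3.64 on iNSC_14F, 27.7 on iNSC_13F, 3.35 on NSC and 6730.4 on MEF, at least 64.8-fold lower on each neural array. Col8a2, its partner chain, had 48.4 on iNSC_14F, 52.2 on iNSC_13F, 11.9 on NSC and 288 on MEF. Col10a1, the collagen of hypertrophic cartilage, had 126 on MEF and signals below the floor elsewhere.

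The 2 collagen genes that were higher in NSC than in MEF in the deposited signals were both FACIT collagens. Col9a3, a chain of cartilage type IX collagen, had 429 on iNSC_14F, 578 on iNSC_13F, 787 on NSC and 9.75 on MEF. All 3 neural arrays were above the floor and MEF was not, so it was at least 4.13-fold higher on iNSC_14F, at least 5.57-fold higher on iNSC_13F and at least 7.58-fold higher on NSC than on MEF. For NSC minus MEF the log2 difference was 2.92 in the deposited signals and 3.81 under the control scaling. Another of its probe sets gave 338 on iNSC_14F, 235 on iNSC_13F, 721 on NSC and 12.2 on MEF, and the last was below the floor on all 4 arrays. Col9a1, a partner chain, had 89.7 on iNSC_14F, 340.2 on iNSC_13F, 143 on NSC and 60.8 on MEF. Its other probe set gave 186 on iNSC_14F, 154 on iNSC_13F, 44.5 on NSC and 67.7 on MEF, so both placed iNSC_13F above MEF but they disagreed on iNSC_14F and NSC. Col9a2, the remaining chain of type IX, was below the floor on all arrays.

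The other FACIT collagens with a signal were highest on MEF. Col12a1, which binds the surface of type I fibrils, had 319 on iNSC_14F, 175 on iNSC_13F, 167 on NSC and 8488 on MEF. It was 26.6-fold lower on iNSC_14F, 48.6-fold lower on iNSC_13F and 50.8-fold lower on NSC than on MEF. Another of its probe sets had 109 on iNSC_14F, 137 on iNSC_13F, 41.7 on NSC and 1035 on MEF. There the log2 differences from MEF were smaller, -3.25 on iNSC_14F and -2.92 on iNSC_13F, and the 2 induced arrays were in the opposite order. Col16a1 had 570.0 on iNSC_14F, 478 on iNSC_13F, 339 on NSC and 1656 on MEF, with NSC 4.89-fold lower than MEF. Its log2 difference of NSC minus MEF moved from -2.29 to -1.40 under the control scaling, less than 4-fold. Col14a1, another fibril-surface collagen, was above the floor on MEF alone, with 370.4.

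All 3 main chains of type VI collagen, which forms beaded filaments around cells, were at least 21.2-fold lower on each neural array than on MEF. Col6a1 had 188 on iNSC_14F, 95.9 on iNSC_13F, 42.7 on NSC and 4333 on MEF. Col6a2 had 328 on iNSC_14F, 80.7 on iNSC_13F, 105 on NSC and 6968 on MEF. For Col6a3 the signals were 139.8 on iNSC_14F, 139 on iNSC_13F, 56.5 on NSC and 15579.9 on MEF. The iNSC_14F array was thus above the floor for 3 of the 3 chains, against 1 of 3 on iNSC_13F and 1 of 3 on NSC. Col6a2 rests on probe sets that disagree, since its other one had 147 on iNSC_14F, 225 on iNSC_13F, 67.6 on NSC and 1501 on MEF.

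The remaining classes held 4 genes with a signal. Col18a1, a multiplexin of basement membranes from which endostatin is cut, had 494 on iNSC_14F, 269 on iNSC_13F, 158 on NSC and 813 on MEF. It was 1.65-fold lower on iNSC_14F than on MEF, within the yardstick of the induced pair, and 5.16-fold lower on NSC. Its log2 difference of NSC minus MEF moved from -2.37 to -1.47 under the control scaling, less than 4-fold. Col15a1, the other multiplexin, was above the floor on MEF alone, with 224. Col7a1, the collagen that anchors skin epithelium to the dermis, had 123 on iNSC_14F, 192 on iNSC_13F, 83.3 on NSC and 1395 on MEF. Col25a1, a transmembrane collagen of neurons, had 26.6 on iNSC_14F, 165 on iNSC_13F, 14.1 on NSC and 91.6 on MEF, with its other probe set below the floor on all 4 arrays.

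The comparisons of the induced populations with MEF ask how far the induced cells lie from fibroblasts. On iNSC_14F, 17 of 26 measured collagen genes were at least 4-fold lower than on MEF, against 8.03% of all measured genes, and 1 was at least 4-fold higher, against 4.49%. The median log2 difference was -3.46 for the collagen genes and 0.10 for all genes. At 2-fold, 22 of 26 were lower, against 19% of all genes, and 1 higher, against 18%. On iNSC_13F, 16 of 28 were at least 4-fold lower than on MEF, against 9.27% of all measured genes, and 1 was at least 4-fold higher, against 3.66%. There the medians were -3.10 for the collagen genes and 0.09 for all genes, with 23 of 28 at least 2-fold lower, against 20.9%, and 2 higher, against 15.6%. Col9a3 was the higher gene in both. At least 4-fold lower than MEF were 9 of 9 fibrillar genes on iNSC_14F and 8 of 9 on iNSC_13F, where Col27a1 was the exception. These comparisons and that of NSC share the MEF array.

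Of the 42 genes, 21 were at least 4-fold apart between NSC and MEF and could be used to place the induced arrays. On iNSC_14F, 16 of the 21 were within 2-fold of NSC, 4 lay between NSC and MEF (Col4a1, Col4a2, Col5a1 and Col6a2) and 1, Col18a1, was within 2-fold of MEF. On iNSC_13F, 15 of the 21 were within 2-fold of NSC, 4 lay between (Col4a1, Col4a2, Col5a1 and Col27a1), and Col5a2 and Col11a1 lay outside, lower than on both. Where NSC and an induced array are both below the floor, a gene counts as within 2-fold of NSC, so these counts hold genes with no measured difference. All genes at least 4-fold lower in NSC numbered 828. The share of them near NSC by the same rule was 66.8% on iNSC_14F and 68.2% on iNSC_13F, against 76.2% and 71.4% of the placed collagen genes, so the collagen shares were not far from those of such genes in general. The sets are not fully alike, since the placed collagen genes include Col9a3, which was higher in NSC. With the control scaling, an alternative added after these counts were seen, 17 collagen genes could be placed. Of these, 12 (70.6%) were within 2-fold of NSC on iNSC_14F and 11 (64.7%) on iNSC_13F. The shares of the 532 genes then at least 4-fold lower in NSC were 79.5% and 77.8%, so the collagen shares were now the lower ones. Col9a3 was again among the placed collagen genes. Col4a1 and Col4a2 lay between on both arrays.

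Set against NSC, the induced arrays differed in few collagen genes, and the largest differences were higher Col4a1 and Col4a2. On iNSC_14F, 2 of 18 measured collagen genes were at least 4-fold higher than on NSC, against 1.42% of all measured genes, and 0 were at least 4-fold lower, against 9.4%. These 2 were Col4a1, 7.16-fold higher, and Col4a2, 5.34-fold higher. On iNSC_13F, 3 of 19 were at least 4-fold higher than on NSC, against 1.07% of all measured genes, and 0 were at least 4-fold lower, against 11.3%. There Col4a1 was 6.41-fold higher, Col4a2 5.15-fold higher and Col27a1 at least 5.08-fold higher. The median log2 difference was 0.64 for the collagen genes on iNSC_14F, against 0.33 for all genes, and 0.50 on iNSC_13F, against 0.30. Scaled to the hybridization controls, these collagen medians were -0.02 and -0.25, against -0.46 and -0.65 for all genes. No collagen gene was then 4-fold higher on either array, against 0.356% of all genes on iNSC_14F and 0.293% on iNSC_13F. On iNSC_13F 2 of 20 (Col5a2 and Col11a1) were 4-fold lower, against 20.3% of all genes.

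The type IV pair stayed above NSC under that scaling, by a log2 difference of 1.96 for Col4a1 and 1.54 for Col4a2 on iNSC_14F, and of 1.61 and 1.29 on iNSC_13F. The other probe set of Col4a1 had 281 on iNSC_14F and 211 on iNSC_13F, against 72.9 on NSC, below the floor. Among genes 2-fold to 4-fold apart from NSC in the deposited signals, Col18a1 was 3.13-fold higher, Col6a2 3.13-fold higher and Col5a1 2.58-fold higher on iNSC_14F. Their log2 differences under the control scaling were 0.77, 0.77 and 0.49, all below 2-fold. On iNSC_13F, Col9a1 was 2.38-fold higher and Col5a1 2.04-fold higher, with log2 differences of 0.18 and -0.044 under the control scaling. In all, 5 of 18 collagen genes were at least 2-fold higher on iNSC_14F, against 16.9% of all genes, and 0 at least 2-fold lower, against 19.3%. On iNSC_13F these were 5 of 19 higher, against 14.8%, and 2 of 19 lower, against 20.8%. The balance turned under the control scaling, with 2 of 20 higher and 5 of 20 lower on iNSC_14F, against 2.52% and 32.2% of all genes, and 3 of 20 higher and 4 of 20 lower on iNSC_13F, against 1.30% and 38.1%.

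The 2 lower genes were fibrillar. Col5a2 was 2.37-fold lower on iNSC_13F than on NSC and 1.89-fold lower on iNSC_14F. Its other probe set had 188 on iNSC_14F and 175 on iNSC_13F, against 871 on NSC. Col11a1 was 2.78-fold lower on iNSC_13F than on NSC and 1.53-fold lower on iNSC_14F, and its other probe set had 194 on iNSC_14F and 170 on iNSC_13F, against 685 on NSC. Under the control scaling both stayed lower, with log2 differences of -1.80 for Col5a2 and -1.49 for Col11a1 on iNSC_14F, and of -2.32 and -2.55 on iNSC_13F. The chains of type V thus lay apart: the log2 differences of Col5a1 and Col5a2 from NSC were 2.29 apart on iNSC_14F and 2.28 on iNSC_13F. Smaller differences kept no fixed direction, since Col4a5, Col16a1 and, on iNSC_13F, Col18a1 were higher than NSC in the deposited signals and lower under the control scaling.

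**Figure D3:**
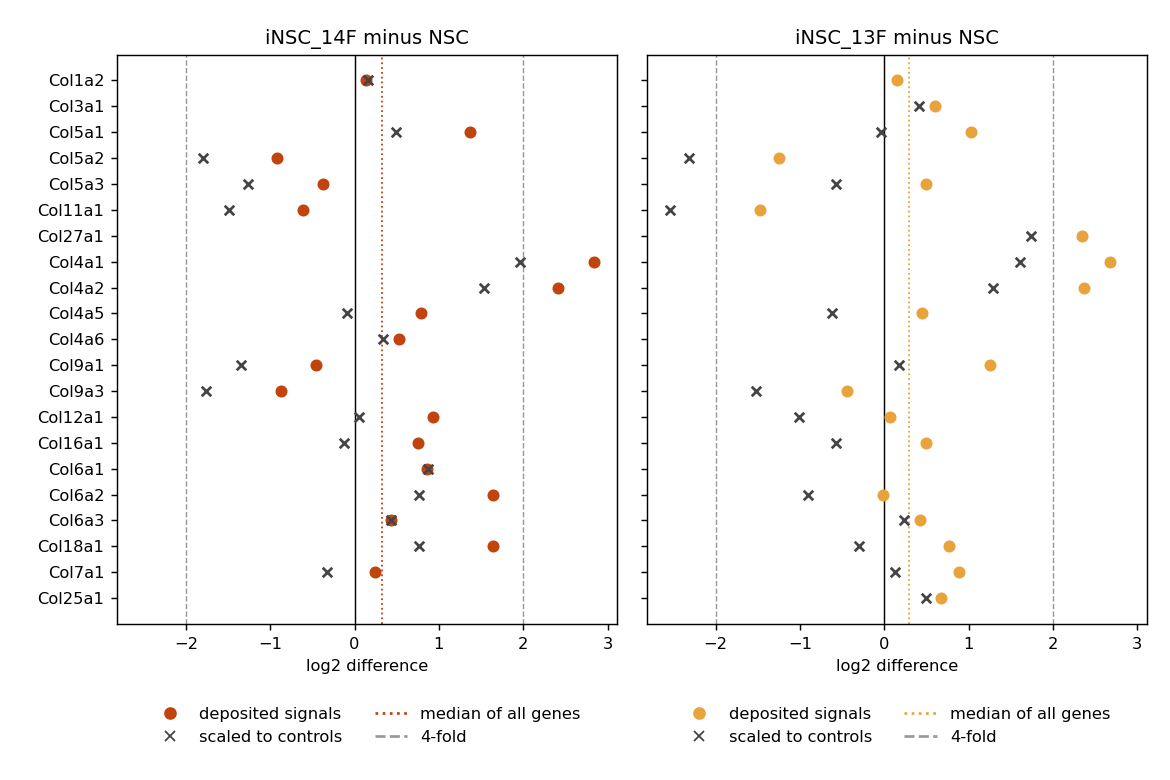
Log2 difference of iNSC_14F minus NSC (left) and iNSC_13F minus NSC (right) for each collagen gene measured in either comparison, from the deposited signals (points) and after scaling to the hybridization controls (crosses), with dashed lines at 4-fold and a dotted line at the median of all genes. Col4a1 and Col4a2 lie past 4-fold in both panels in the deposited signals and stay right of 0 after scaling, while Col5a2 and Col11a1 lie left of 0 under both.

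Between iNSC_14F and iNSC_13F, few collagen genes were far apart. Of 21 measured, 1 was at least 4-fold lower on iNSC_14F, against 0.342% of all measured genes, and 0 were at least 4-fold higher, against 0.5%. At 2-fold, 1 of 21 was higher, against 6.03%, and 2 of 21 were lower, against 2.97%. The gene past 4-fold was Col27a1, at least 5.08-fold lower on iNSC_14F than on iNSC_13F. Col9a1 was at least 3.27-fold lower and Col6a2 at least 3.16-fold higher on iNSC_14F, and for both the other probe set went the opposite way. Col4a1 and Col4a2 were 1.12-fold and 1.04-fold higher on iNSC_14F, well within the 2.32-fold that held 95% of genes. Col18a1 was 1.83-fold higher on iNSC_14F, and its other probe set had 338 on iNSC_14F, against 84.3 on iNSC_13F.

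Probe sets of a gene gave a further check. Where a gene had several measured probe sets, all went the same way for 15 of 15 genes between NSC and MEF, 15 of 15 between iNSC_14F and MEF and 16 of 16 between iNSC_13F and MEF. Against NSC this held for 9 of 10 genes on iNSC_14F, with Col9a1 the exception, and for 9 of 10 on iNSC_13F, with Col6a2 the exception. Between the induced arrays it held for 7 of 11. Probe sets above the floor on both arrays differed by a median range of 0.26 in log2 between NSC and MEF (4 genes), 0.75 between iNSC_14F and NSC (5 genes) and 0.54 between iNSC_13F and NSC (5 genes). The widest range was that of Col12a1 between iNSC_13F and MEF, at 2.68.

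The genes that make, trim, bind and degrade collagen were taken from lists of known roles. Enzymes and chaperones of the endoplasmic reticulum hydroxylate and fold the chains, and 19 of the 20 listed had a probe set. Between NSC and MEF, 8 of the 19 were 4-fold or more lower in NSC, against 7.21% of all genes, and 1 was higher, against 6.09%, with a median log2 difference of -1.46. Under the control scaling 5 were lower and 1 higher, against 4.38% and 16.6% of all genes, with a median of -0.56. The median of all genes was 0.80 under that scaling and -0.01 in the deposited signals. P3h3, a member of the prolyl 3-hydroxylase family, had 721 on iNSC_14F, 346 on iNSC_13F, 112 on NSC and 1893 on MEF. P4ha1, a catalytic subunit of prolyl 4-hydroxylase, had 2012 on iNSC_14F, 685 on iNSC_13F, 720.2 on NSC and 5526 on MEF. The higher gene was Colgalt2, which adds galactose to collagen hydroxylysines, at least 6.52-fold higher in NSC than in MEF, and it was named after its value was seen. Against NSC, 10 of the 18 with a signal were 2-fold or more higher on iNSC_14F, against 16.9% of all genes, and 1 lower, against 19.3%. On iNSC_13F, 6 of 17 were higher, against 14.8%, and 2 lower, against 20.8%. Under the control scaling 3 were higher and 2 lower on iNSC_14F, against 2.52% and 32.2% of all genes. On iNSC_13F 1 was higher and 5 lower, against 1.30% and 38.1%. Plod1, a lysyl hydroxylase, had 1307 on iNSC_14F, 693 on iNSC_13F, 253 on NSC and 1175 on MEF. Its 2 probe sets disagreed in direction for each induced array against MEF. P3h2, a prolyl 3-hydroxylase, had 272 on iNSC_14F, 680.4 on iNSC_13F, 122 on NSC and 118 on MEF, so iNSC_13F was above NSC and MEF alike. Scaled to the hybridization controls, the medians of the list against NSC were 0.22 on iNSC_14F and -0.35 on iNSC_13F. In the deposited signals they were 1.03 and 0.73, so the sign turned for iNSC_13F. The medians of all genes moved too, from 0.33 and 0.30 to -0.46 and -0.65, and the list stayed above them on both arrays.

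Proteases that trim procollagen and oxidases that cross-link it had a probe set for 10 of 13 genes. Between NSC and MEF, 6 of 8 measured were 4-fold or more lower in NSC, against 7.21% of all genes, and 0 higher, against 6.09%, with a median log2 difference of -4.38, or -3.93 under the control scaling. Lox, the lysyl oxidase that begins cross-linking, had 84.7 on iNSC_14F, 107 on iNSC_13F, 41.8 on NSC and 18580.5 on MEF, at least 179-fold lower on NSC. Loxl1, a related oxidase, was at least 139-fold lower on NSC, and Loxl3, another, was 48.4-fold lower. Pcolce, which enhances removal of the procollagen C-propeptide, had 569.8 on iNSC_14F, 2436 on iNSC_13F, 404 on NSC and 32650 on MEF. It was 6.03-fold higher on iNSC_13F than on NSC and 1.41-fold higher on iNSC_14F, and under the control scaling these log2 differences were 1.52 and -0.38.

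Collagen receptors differed in both directions. Ddr2, a receptor kinase for fibrillar collagen, had 19.9 on iNSC_14F, 25.1 on iNSC_13F, 125 on NSC and 1630 on MEF, with NSC 13.0-fold lower than MEF. Adgrg1, an adhesion receptor that binds type III collagen in the developing brain, had 1063 on iNSC_14F, 595 on iNSC_13F, 498 on NSC and 13.5 on MEF. It was at least 4.79-fold higher on NSC than on MEF, while its ligand gene Col3a1 was below the floor there. Itgb1, the beta subunit of the collagen-binding integrins, had 606 on iNSC_14F, 541 on iNSC_13F, 3398 on NSC and 6571 on MEF. It was 5.60-fold lower on iNSC_14F and 6.28-fold lower on iNSC_13F than on NSC, and 3 of 3 measured probe sets went that way in each comparison. Its log2 differences from NSC under the control scaling were -3.37 on iNSC_14F and -3.72 on iNSC_13F, against -2.49 and -2.65 in the deposited signals.

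Of 5 measured genes that degrade or take up collagen, 4 were at least 4-fold lower in NSC than in MEF, against 7.21% of all genes, with a median log2 difference of -3.92, or -3.04 under the control scaling. Mmp14, a membrane-bound collagenase, was 15.5-fold lower, Mmp2, a gelatinase, 15.3-fold lower, and Ctsk, a collagen-cleaving cathepsin, at least 15.2-fold lower. Mrc2, a receptor that takes up collagen fragments, had 1237 on iNSC_14F, 978 on iNSC_13F, 226 on NSC and 2348 on MEF. It was 5.48-fold higher on iNSC_14F and 4.33-fold higher on iNSC_13F than on NSC, with log2 differences of 1.58 and 1.04 under the control scaling.

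**Figure D4:**
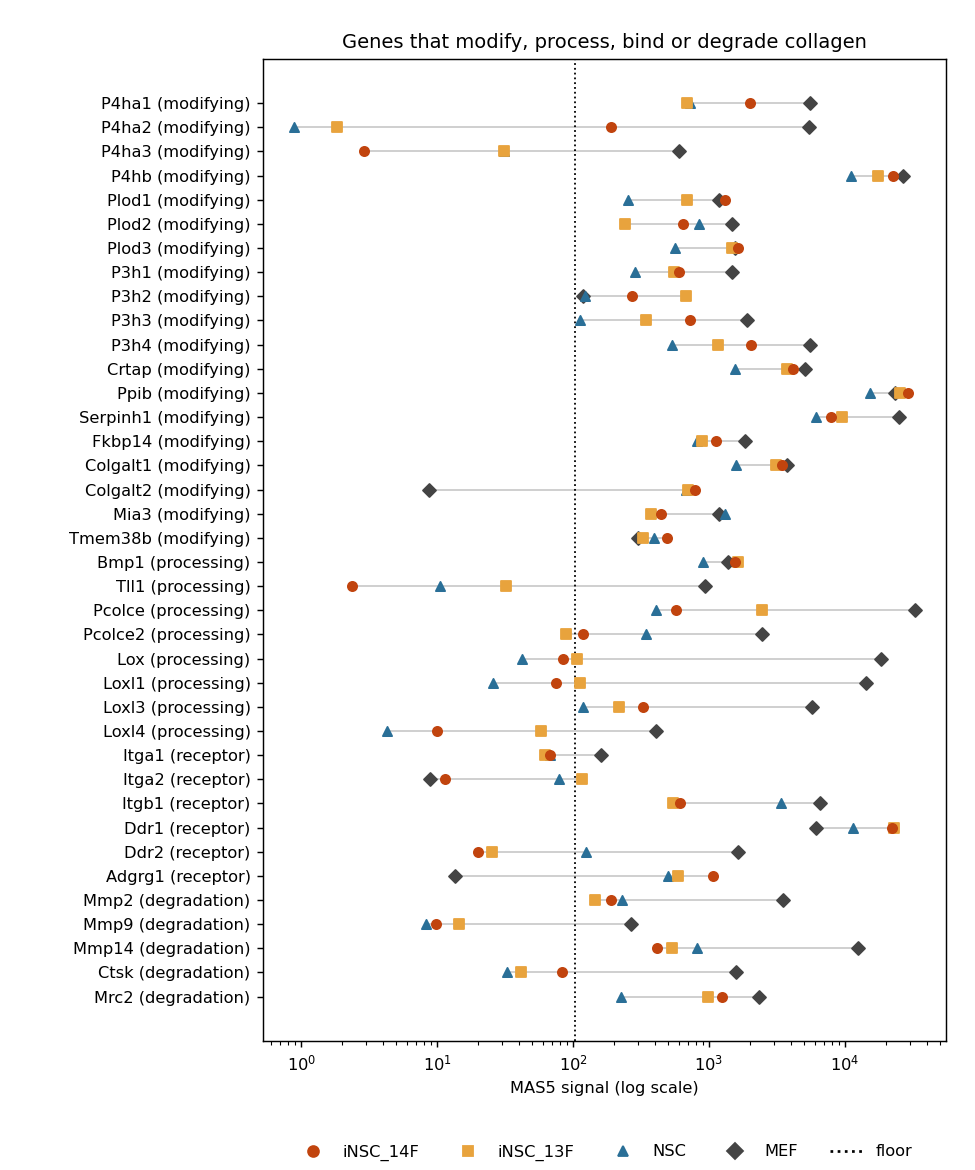
MAS5 signal on a log axis for genes that modify, process, bind or degrade collagen and were above the floor (dotted line) on at least 1 array, with 1 marker for each of the 4 arrays. Lox and Loxl1 show the widest gap between NSC and MEF among the processing genes, while the receptor Adgrg1 lies above the floor on all 3 neural arrays and below it on MEF.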

How the data were processed

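Total RNA of 4 samples was labelled with biotin and hybridized to arrays, per the labels' protocols, and samples were grouped by their cell type label. The deposited values are array intensities, 1 linear signal per probe set, made with MAS5, per the submitters' processing notes. Its version was not given in the sources used here, nor were its settings. The 2% trimmed mean was 500 on each array, so no further scaling was applied. Of 45101 probe sets, 64 were controls, 34945 named 1 gene through the platform annotation, 932 several and 9160 none. Names were matched by gene ID to RefSeq for 34741.

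Each gene was represented by the probe set with the highest mean log2 signal after flooring. All 6 pairs of arrays were compared with Python 3.11.15, numpy 2.4.6 and pandas 2.3.3, and genes were counted at 4-fold and 2-fold. Precision is limited by the signal over background and by having 1 array per group. Collagen genes and lists were chosen with earlier results of these data known. Collagen genes above the floor were described one by one, and from each other list the 4 largest differences between NSC and MEF and the 3 largest of each induced array from NSC could be named. Alternatives were quantile normalization, scaling to 14 hybridization controls, the 75th or 99th percentile as floor, a pseudocount of 16 without a floor, the median over probe sets, removal of probe sets ending in _s_at or _x_at, and a signal above the floor required on both arrays.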

Additional observations from a re-analysis of the deposited data

Results flagged for a closer look

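For 4 genes described above the induced arrays lay on opposite sides of NSC by the brightest probe set. Col6a2 had a log2 difference from NSC of 1.65 on iNSC_14F and -0.013 on iNSC_13F, the last from a signal set to the floor. The other probe set of Col6a2 put both induced arrays above NSC, by 0.50 on iNSC_14F and 1.11 on iNSC_13F, with NSC below the floor. Col9a1 had -0.46 on iNSC_14F, from a signal set to the floor, and 1.25 on iNSC_13F, and its probe sets disagreed. P4ha1, a subunit of prolyl 4-hydroxylase, had 1.48 on iNSC_14F and -0.072 on iNSC_13F. Col5a3 had -0.37 on iNSC_14F, also from a floored signal, and 0.50 on iNSC_13F, both under 2-fold. For 2 genes the induced arrays lay on opposite sides of MEF, both under 2-fold. Col4a6 had 0.48 on iNSC_14F and -0.048 on iNSC_13F, the last from a signal set to the floor. Plod1 had 0.15 on iNSC_14F and -0.76 on iNSC_13F, but its other probe set had the opposite signs, -0.13 and 0.19. With 1 array per population, none of these differences was tested.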

How the results depend on the processing

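No paired analysis was possible because each group had 1 array and no result came from a test. Of 96 counts recomputed at the 4-fold rule, 70 stayed within 1.5 times the reported count and 26 did not, and those 26 follow. When both arrays had to be above the floor, genes at least 4-fold lower in NSC than in MEF numbered 11, against the reported 20. Only 11 collagen genes were measured there, so all of them were lower, against 5.11% of all genes. Those lower in iNSC_14F than in MEF were then 11 of 15 measured, against the reported 17 and 5.74% of all genes. Higher than MEF, NSC had 2 genes with the pseudocount and 0 with both arrays above the floor. For iNSC_14F the count higher than MEF was 0 with the 99th percentile floor, with the median of probe sets and with both arrays above the floor. For iNSC_13F it was 2 with quantile normalization, the 75th percentile floor or the pseudocount, and 0 with the 99th percentile floor, the median of probe sets or both arrays above the floor. Scaled to the hybridization controls, iNSC_14F had 0 genes higher than NSC, and iNSC_13F had 0 higher and 2 lower, the last against 20.3% of all genes. With the 99th percentile floor, 1 gene was higher than NSC on iNSC_14F and 1 on iNSC_13F. With the pseudocount, 1 gene was lower than NSC on iNSC_14F and 5 were higher on iNSC_13F. Lower on iNSC_14F than on iNSC_13F were 2 genes with quantile normalization or the pseudocount, and 0 with the 99th percentile floor, the median of probe sets or both arrays above the floor. Higher on iNSC_14F was 1 with the 75th percentile floor. Among differences of single collagen genes of at least 2-fold in the deposited signals, 1 changed sign. It was Col5a1 between iNSC_13F and NSC, at -0.044 under the control scaling. Smaller differences were not counted here, and some of them changed sign, as given above. Among recomputed log2 differences of single collagen genes of any size, 195 moved by more than 1.5-fold over all alternatives. Another 731 results stayed within that, the counts of genes within 2-fold of NSC included. Under the control scaling alone, 40 moved and 99 stayed. The causes were not tested. Values near the floor and small counts limit what these arrays show.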
